A study of Mus musculus with 16 samples.

Results

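Decorin (Dcn), lumican (Lum), osteoglycin (Ogn), biglycan (Bgn), fibromodulin (Fmod), periostin (Postn), fibronectin (Fn1) and Sparc were taken as 8 genes of the proteoglycans and stromal glycoproteins of the extracellular matrix. They were found by gene symbol among 19938 named genes, and all 8 of 8 were measured. Each gene was read from the probe set that carried its symbol alone and had the highest mean over all 16 arrays. The arrays were Affymetrix expression arrays of mouse cells, and every value is a log2 level after robust multi-array averaging (RMA), so that a difference of 1 is a doubling.

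The study asked how WNT1 and DKK3 bear on the making of midbrain dopaminergic (mdDA) neurons from mouse induced pluripotent stem cells (iPSCs). The treated group held 5 biological replicates of iPSC-derived mdDA neurons differentiated with recombinant human WNT1 and DKK3. The control group held 5 biological replicates differentiated without them. Primary mdDA neurons of the ventral midbrain were measured at E14.5 and at E13.5, each as 3 technical replicates, and so as 1 sample a stage. All 4 groups carried the genotype Pitx3GFP/+ on a mixed C57BL/6 x 129/Ola background. This allele places GFP at Pitx3, a gene of dopaminergic neurons, and the cells were sorted for GFP by flow cytometry; the labels of the iPSC-derived samples leave the sort unnamed, and the series description gives it. Separate cultures or clones are not named in the labels for the biological replicates. The p-values therefore cover the spread among the samples given, which may be technical. In the tests against primary neurons, both stages stood as samples of 1 group. The spread in these tests was pooled over treated, control and primary samples, and so came mostly from the iPSC-derived arrays.

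Dcn, Bgn, Lum, Fmod and Ogn encode small leucine-rich proteoglycans, secreted core proteins that bind collagen fibrils and carry glycosaminoglycan chains. Dcn and Bgn also bind TGF-beta, a growth factor held in the matrix. Fn1 assembles into fibrils that cells grip through integrins, while Postn and Sparc are matricellular proteins, which act on contacts between cells and matrix. Fibroblasts, meningeal cells and vascular wall cells make these proteins in large amounts, and neurons of the embryonic brain make little of most of them.

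Labels and markers were compared first. Of 9 dopaminergic markers, all 9 were lower in control cells than in primary neurons by limma's moderated test, with a median log2 difference of -3.29. The mean log2 level of these 9 markers was 5.75 to 7.87 on treated arrays, 5.84 to 7.51 on control arrays, 9.71 to 9.84 on E14.5 arrays and 9.49 to 9.92 on E13.5 arrays. All 8 general neuronal markers were lower as well, with a median of -3.68, while 22.5% of all genes were called lower. By these markers the iPSC-derived samples fell short of their label as mdDA neurons, and the arrays numbered 5 stood apart from the rest. Treated replicate 5 had a mean dopaminergic level of 7.87 and control replicate 5 one of 7.51, whereas the other 8 iPSC-derived arrays lay at 5.75 to 6.05. The limma tests and correlations below were also run without those 2 arrays.

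All 8 genes were far higher in iPSC-derived cells than in primary neurons, and none passed the test between WNT1 and DKK3 treatment and control. The differences from primary neurons were highest for Dcn, at 5.48 in treated and 5.68 in control cells on the log2 scale, and Ogn, at 5.44 in treated and 5.65 in control cells, whose order changed between alternatives. They were smallest for Fmod, at 2.51 in treated and 2.56 in control cells. On every one of the 10 iPSC-derived arrays each of the 8 genes lay above all 6 primary arrays. This held for 8 of 8 genes, against 14.1% of all 19938 genes. In bulk samples, fewer cells of a type and less RNA per cell cannot be told apart.

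**Figure D1:**
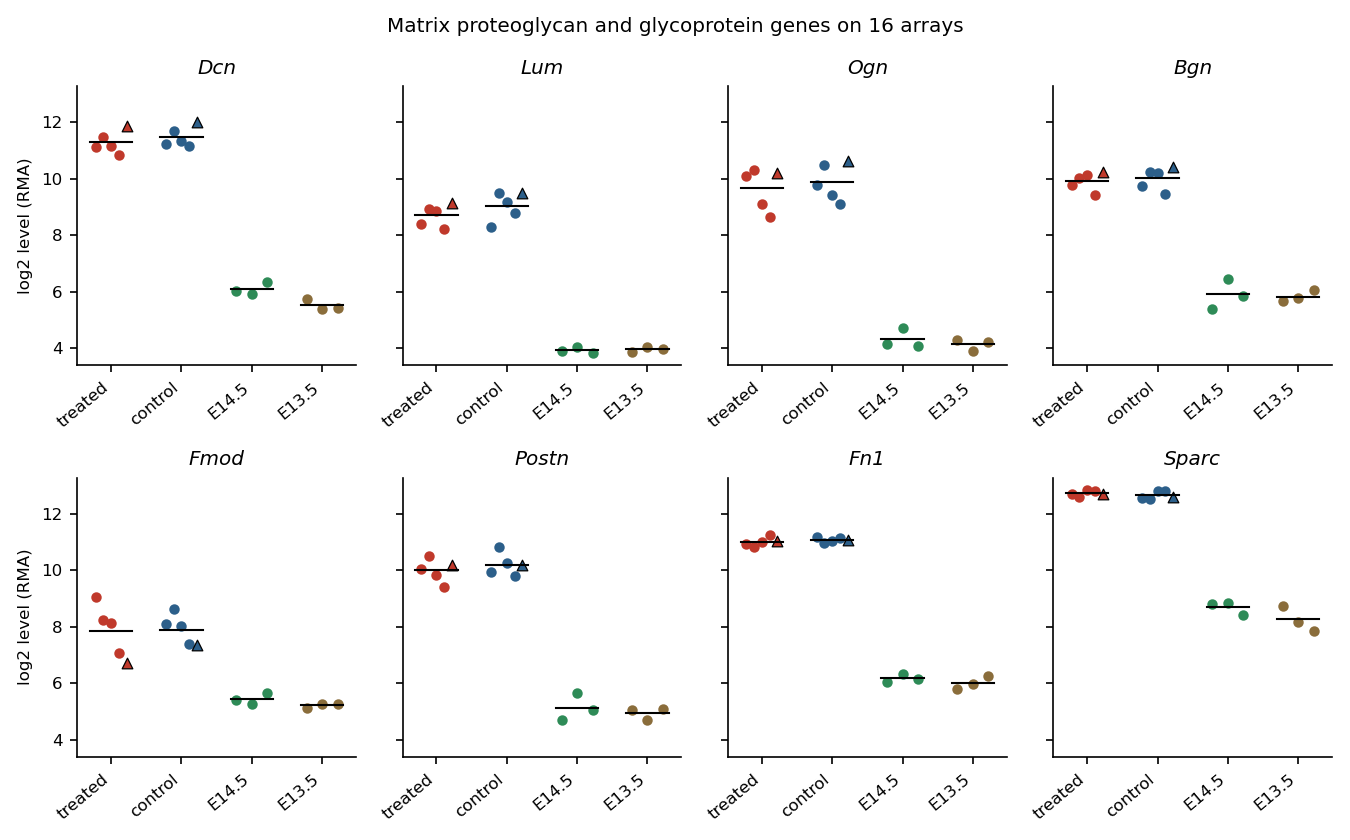
Log2 level after RMA of each gene on all 16 arrays, by group from treated to E13.5; points are arrays, triangles are the arrays numbered 5, and black bars are group means. In all 8 panels the treated and control points overlap each other and lie above the points of both primary stages.

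The stretch upstream of the annotated start was read from RefSeq for the genes that had one, on mouse build GRCm38.p6. A window was listed for 5 of the 8 genes (Ogn, Bgn, Fmod, Postn and Sparc). The 250 bases before the start are shown for Ogn, Bgn and Postn, whose levels correlated positively over the iPSC-derived arrays, and for Sparc, whose level correlated negatively with theirs. They are written 5′ to 3′ on the strand of the gene. Capitals mark TATAAA in Ogn, GGGCGG in Bgn and CAGAC in Postn and Sparc, each read on either strand, so that a match on the other strand appears as its reverse complement. The windows are chr13:49607765-49608014 on the plus strand for Ogn, chrX:73483351-73483600 on the plus strand for Bgn, chr3:54359017-54359266 on the plus strand for Postn and chr11:55420081-55420330 on the minus strand for Sparc.
Ogn: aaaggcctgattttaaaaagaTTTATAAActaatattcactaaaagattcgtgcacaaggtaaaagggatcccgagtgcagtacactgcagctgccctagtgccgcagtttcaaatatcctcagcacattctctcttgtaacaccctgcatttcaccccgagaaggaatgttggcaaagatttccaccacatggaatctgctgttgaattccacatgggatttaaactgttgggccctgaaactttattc
Bgn: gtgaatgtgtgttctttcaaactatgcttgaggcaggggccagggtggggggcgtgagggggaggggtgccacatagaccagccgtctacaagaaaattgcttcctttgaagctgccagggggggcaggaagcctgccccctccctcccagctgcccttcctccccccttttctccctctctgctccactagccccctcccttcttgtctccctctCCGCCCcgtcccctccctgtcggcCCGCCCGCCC
Postn: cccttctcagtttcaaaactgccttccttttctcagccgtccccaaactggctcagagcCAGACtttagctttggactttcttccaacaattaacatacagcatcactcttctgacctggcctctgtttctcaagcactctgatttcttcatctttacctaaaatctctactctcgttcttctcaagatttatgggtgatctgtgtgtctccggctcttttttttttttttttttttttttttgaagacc
Sparc: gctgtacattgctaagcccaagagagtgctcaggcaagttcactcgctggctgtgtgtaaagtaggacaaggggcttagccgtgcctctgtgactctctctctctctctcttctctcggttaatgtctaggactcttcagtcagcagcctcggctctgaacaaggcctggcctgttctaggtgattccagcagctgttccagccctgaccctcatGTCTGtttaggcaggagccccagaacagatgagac
In all, 5 motifs were searched on both strands of these windows, namely TATAAA for the TATA box, TGANTCA for AP-1, GGGCGG for the GC box, the letters CCAAT, and CAGAC for SMAD proteins. The Ogn window held TATAAA 2 times, as overlapping matches on opposite strands far upstream of the start. The Bgn window held GGGCGG 3 times, of which 2 overlapped, beside the start. CAGAC occurred 2 times in Fmod and once each in Postn and Sparc. Among all 32851 windows of this length, 12.4% held TATAAA, 32.7% GGGCGG and 42.2% CAGAC. The letters TGANTCA and CCAAT, found in 6.7% and 33.8% of all windows, were in none of the 5. Base composition differed widely between the genes: 64.4% of the Bgn bases were G or C, against 54.0% in Sparc, 51.2% in Fmod, 42.0% in Ogn and 40.4% in Postn, with a median of 52.4% over all windows. A match is a description of letters and not of a bound site.

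Among the leucine-rich proteoglycans, Dcn binds collagen I fibrils and limits their width. Its log2 level was 11.14, 11.48, 11.16, 10.84 and 11.87 in treated replicates 1 to 5 and 11.25, 11.70, 11.36, 11.17 and 12.01 in control replicates 1 to 5. The primary arrays gave 6.04, 5.94 and 6.34 at E14.5 and 5.77, 5.39 and 5.42 at E13.5. Replicate 5 was the highest and replicate 4 the lowest of both iPSC-derived groups, whose ranges overlapped in part. Control cells exceeded primary neurons by 5.68 on the log2 scale (SE 0.28, 51.2-fold, adjusted p = 3.27e-08 by limma over all genes), which ranked Dcn 5 of 19938 genes by difference. Treated cells exceeded primary neurons by 5.48 (44.6-fold, adjusted p = 4.35e-08).

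Bgn, the closest relative of Dcn, lies on the X chromosome. On the log2 scale it was at 9.78, 10.05, 10.14, 9.42 and 10.25 in treated replicates 1 to 5 and 9.74, 10.24, 10.22, 9.46 and 10.44 in control replicates 1 to 5. The primary arrays gave 5.41, 6.46 and 5.87 at E14.5 and 5.67, 5.78 and 6.06 at E13.5. Replicate 4 was again the lowest in both iPSC-derived groups and replicate 5 the highest. Relative to primary neurons the log2 difference was 4.05 in treated cells (16.6-fold, adjusted p = 2.47e-07 by limma) and 4.14 in control cells (SE 0.26, 17.7-fold, adjusted p = 2.04e-07).

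Lum, a keratan sulfate proteoglycan needed for a clear cornea, is a neighbour of Dcn in the genome. Its log2 level was 8.42, 8.94, 8.87, 8.22 and 9.14 in treated replicates 1 to 5 and 8.32, 9.49, 9.18, 8.78 and 9.49 in control replicates 1 to 5. On primary arrays it was 3.93, 4.06 and 3.86 at E14.5 and 3.87, 4.07 and 4.00 at E13.5. The 5 treated values lay within or just below the control range. All 6 primary values were below the lower quartile of their own array, which was 4.57 to 4.70 over the primary arrays. RMA values carry no detection call, so whether Lum was above background in primary neurons was not tested. The difference from primary neurons was 4.75 in treated cells (27.0-fold, adjusted p = 2.67e-07 by limma) and 5.09 in control cells (SE 0.31, 34.0-fold, adjusted p = 1.58e-07). If Lum was below background in primary neurons, both folds are lower limits.

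Ogn, also called mimecan, was first known from bone. The Ogn log2 level was 10.11, 10.33, 9.10, 8.66 and 10.21 in treated replicates 1 to 5 and 9.77, 10.51, 9.42, 9.12 and 10.63 in control replicates 1 to 5. On primary arrays it was 4.16, 4.74 and 4.09 at E14.5 and 4.32, 3.90 and 4.23 at E13.5. Replicates 3 and 4 were the low ones in both iPSC-derived groups, and 5 of 6 primary values were below their array's lower quartile. The difference from primary neurons was 5.44 in treated cells (43.5-fold, adjusted p = 3.32e-06 by limma) and 5.65 in control cells (SE 0.49, 50.3-fold, adjusted p = 2.43e-06). As for Lum, detection in primary neurons was not tested, and both folds are lower limits if Ogn was below background there.

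Fmod binds collagen fibrils in tendon and other dense tissue. The Fmod log2 level was 9.07, 8.23, 8.13, 7.09 and 6.73 in treated replicates 1 to 5 and 8.11, 8.62, 8.02, 7.40 and 7.34 in control replicates 1 to 5. The primary arrays gave 5.41, 5.28 and 5.66 at E14.5 and 5.13, 5.28 and 5.28 at E13.5. In contrast to Dcn and Bgn, Fmod was lowest on the arrays numbered 5, and its values spread over more than 2 log2 units in treated cells. The difference from primary neurons was 2.51 in treated cells (5.69-fold, adjusted p = 0.00235 by limma) and 2.56 in control cells (SE 0.53, 5.89-fold, adjusted p = 0.00203). Without the arrays numbered 5 it was 2.79 in treated cells (adjusted p = 0.000406 by limma) and 2.70 in control cells (adjusted p = 0.000514).

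Of the glycoproteins, Postn binds integrins and collagen and marks periosteum, tooth ligament and heart valves. Its log2 level was 10.05, 10.53, 9.83, 9.43 and 10.19 in treated replicates 1 to 5 and 9.96, 10.82, 10.26, 9.80 and 10.21 in control replicates 1 to 5. Primary neurons had 4.71, 5.65 and 5.04 at E14.5 and 5.06, 4.71 and 5.09 at E13.5. Replicate 2 was highest and replicate 4 lowest in both iPSC-derived groups. Relative to primary neurons Postn was higher by 4.96 in treated cells (31.1-fold, adjusted p = 8.95e-08 by limma) and 5.16 in control cells (SE 0.28, 35.8-fold, adjusted p = 6.94e-08).

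Fn1 forms the provisional fibril network to which many cells attach. The log2 level of Fn1 was 10.93, 10.82, 11.01, 11.25 and 11.04 in treated replicates 1 to 5 and 11.17, 10.96, 11.06, 11.15 and 11.07 in control replicates 1 to 5. On primary arrays it was 6.06, 6.32 and 6.16 at E14.5 and 5.81, 5.98 and 6.27 at E13.5. All 10 iPSC-derived values lay within 10.82 to 11.25. Relative to primary neurons Fn1 was higher by 4.91 in treated cells (30.1-fold, adjusted p = 1.09e-10 by limma) and 4.98 in control cells (SE 0.12, 31.6-fold, adjusted p = 1.20e-10). In each of these comparisons no gene had a smaller adjusted p. Adjusted values can be shared by several genes, so this does not rank Fn1 first.

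Sparc, or osteonectin, is a calcium- and collagen-binding protein that endothelial and glial cells also make. On the log2 scale Sparc was at 12.70, 12.59, 12.84, 12.82 and 12.69 in treated replicates 1 to 5 and 12.57, 12.54, 12.81, 12.81 and 12.59 in control replicates 1 to 5. Primary neurons had 8.82, 8.85 and 8.44 at E14.5 and 8.76, 8.19 and 7.86 at E13.5. Replicates 3 and 4 were the high ones in both iPSC-derived groups, a pattern opposite to that of Ogn. The difference from primary neurons was 4.24 in treated cells (18.9-fold, adjusted p = 8.77e-10 by limma) and 4.18 in control cells (SE 0.13, 18.1-fold, adjusted p = 1.05e-09).

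Over the 8 genes, 8 were called higher in treated than in primary cells, against 19.9% of all genes. Likewise 8 were called higher in control than in primary cells, against 19.3% of all genes, while 22.5% of all genes were called lower in control cells. A difference of at least 4 log2 units in control cells was reached by 7 of the 8 genes, all but Fmod, against 0.466% of all genes. The median difference of the 8 genes was 4.83 in treated cells, against -0.09 over all genes, and 5.03 in control cells, against -0.11 over all genes. These comparisons use the same primary samples and are not independent of each other. When each array was centred on its own median, 3046 genes were called higher and 8833 lower in control cells, in place of 3855 and 4491, and all 8 genes were still called higher. Without the arrays numbered 5 all 8 were called higher too, by 2.79 (Fmod) to 5.34 (Dcn) in treated and 2.70 (Fmod) to 5.55 (Dcn) in control cells.

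Marker genes of other cell types differed along with the 8 genes. Over all genes, 19.3% were called higher in control than in primary cells and 22.5% lower. Of 16 mesenchyme and fibroblast markers that are not matrix genes, 10 were higher and 0 lower in control than in primary cells, with Prrx1, Osr1 and Pdgfra higher by 3.83, 3.61 and 2.95 on the log2 scale. The mean level of these 16 markers was 6.62 to 7.17 on treated arrays, 6.68 to 7.18 on control arrays, 5.42 to 5.65 on E14.5 arrays and 5.40 to 5.56 on E13.5 arrays. The arrays numbered 5 were the highest, at 7.17 and 7.18, against 6.62 to 6.95 on the other 8 iPSC-derived arrays. Of 7 meningeal markers, 6 were higher, with Slc6a13 at 3.64, and their mean level was 7.14 to 7.96 on treated, 7.32 to 8.05 on control, 5.51 to 5.85 on E14.5 and 5.67 to 5.75 on E13.5 arrays. Astrocyte and radial glia markers were higher for 6 of 8 (Gfap by 5.03), and their mean level was 8.93 to 9.75 on treated, 8.77 to 9.61 on control, 7.11 to 7.25 on E14.5 and 6.81 to 7.03 on E13.5 arrays. Pericyte and smooth muscle markers were higher for 4 and lower for 1 of 8 (Acta2 at 3.61, Rgs5 at -1.12). Endothelial markers were higher for 2 (Cdh5 at 3.27 and Kdr at 1.75) and lower for 1 (Cldn5 at -0.47) of 8. Of 7 muscle markers 3 were higher, and of the 5 cartilage and bone markers measured 1 was higher and 1 lower. The endothelial counts and the cartilage and bone counts lie near the all-gene shares. With arrays centred on their medians, 3046 of all 19938 genes were called higher and 8833 lower. Mesenchyme markers were then higher for 8 and lower for 2 (Tcf21 at -0.38 and Meox1 at -0.36), and pericyte markers higher for 4 and lower for 3. Endothelial markers were higher for 2 and lower for 3, and cartilage and bone markers higher for 1 and lower for 3. None of 6 pluripotency markers passed, and their mean level was 5.21 to 8.87 on treated, 5.45 to 8.33 on control, 5.04 to 5.63 on E14.5 and 5.63 to 5.80 on E13.5 arrays, the arrays numbered 5 being the low ones of both iPSC-derived groups. RMA values have no zero, so no marker can be listed as absent. The part of these cell types in the difference of the 8 genes was not tested.

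**Figure D2:**
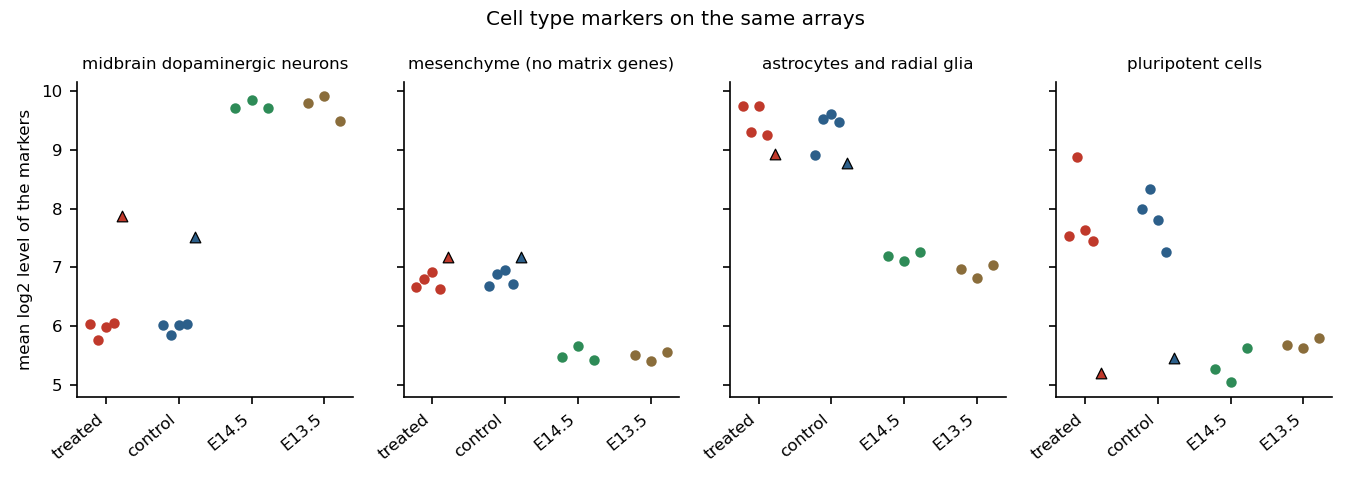
Mean log2 level after RMA of the markers of 4 cell types on the 16 arrays, by group from treated to E13.5; points are arrays and triangles the arrays numbered 5. Mesenchyme markers are higher on all iPSC-derived arrays than on primary arrays. The arrays numbered 5 are the highest iPSC-derived arrays in the dopaminergic (7.87 and 7.51) and mesenchyme (7.17 and 7.18) panels. They are the lowest iPSC-derived arrays in the pluripotent panel (5.21 and 5.45).

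No difference between WNT1 and DKK3 treatment and control was detectable for these genes. In treated against control cells the log2 difference was -0.20 for Dcn, -0.34 for Lum, -0.21 for Ogn, -0.09 for Bgn, -0.05 for Fmod, -0.20 for Postn, -0.07 for Fn1 and 0.06 for Sparc. None of the 8 passed limma's test (each adjusted p = 1.0), against 0.0% of all genes; 300 genes had an unadjusted p under 0.05, and the smallest adjusted p of any gene was 0.753. The treated mean was lower for 7 of the 8 genes, with a median difference of -0.15 against 0.02 over all genes. The 95% intervals treat the 5 treated and 5 control arrays as unpaired. With equal replicate numbers taken as blocks, SEs were smaller, such as 0.078 in place of 0.210 for Dcn, and none of the 8 passed. The unpaired intervals were narrow for Sparc (-0.13 to 0.26) and Fn1 (-0.27 to 0.13). They were wide for Fmod (-0.97 to 0.87) and Ogn (-1.06 to 0.64). Between them lay Dcn (-0.66 to 0.26), Lum (-0.88 to 0.21), Bgn (-0.55 to 0.37) and Postn (-0.70 to 0.29). Treated and control values overlapped for all 8 genes. The sign was not settled for Ogn, Bgn and Fmod: without treated replicate 4 the Ogn difference was 0.044 and the Bgn difference 0.035, and without treated replicate 5 the Fmod difference was 0.23. With 1 array left out in turn the others kept their sign but moved in size, from -0.34 (without treated replicate 5) to -0.07 (without control replicate 5) for Dcn and from -0.33 (without treated replicate 2) to -0.05 (without control replicate 2) for Postn. Lum ranged from -0.52 (without control replicate 1) to -0.21 (without treated replicate 4), Fn1 from -0.13 (without treated replicate 4) to -0.02 (without treated replicate 2), and Sparc from 0.03 (without control replicate 2) to 0.10 (without control replicate 4).

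**Figure D3:**
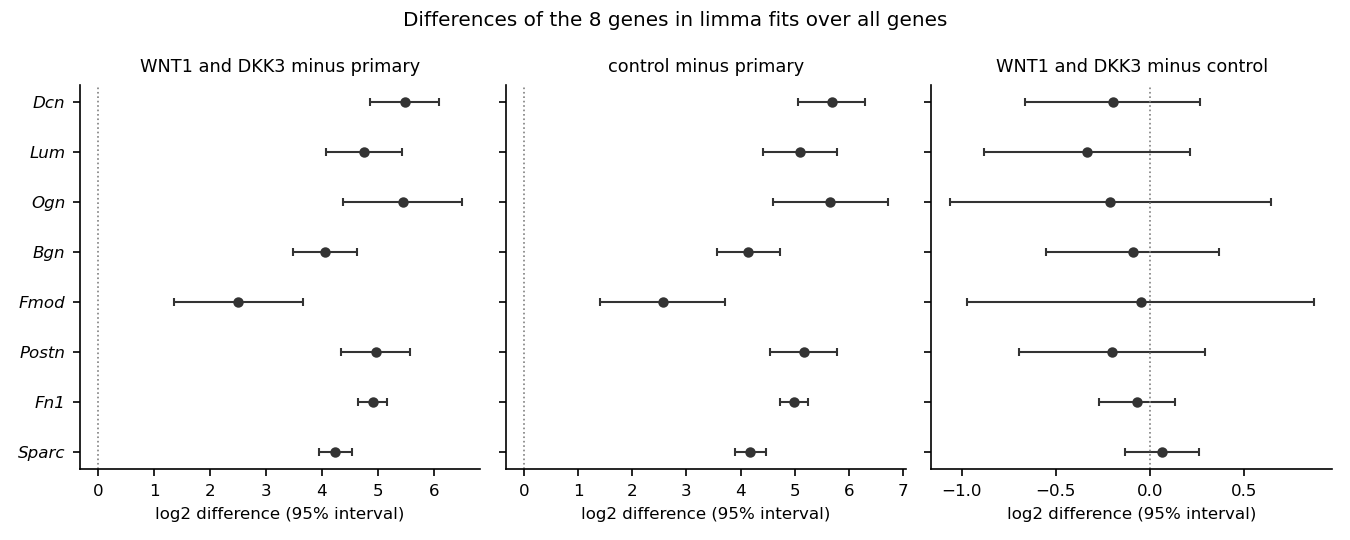
Log2 difference of each gene with its 95% interval from limma, for treated minus primary, control minus primary and treated minus control; the third panel has a narrower axis. The first and second panels show intervals wholly above 0, from 1.36 for the lower bound of Fmod in treated cells, and the third shows all 8 intervals spanning 0.

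In each gene the order of levels put both iPSC-derived groups above both primary stages. Treated and control cells, neighbours at the top, did not differ beyond their spread, with means of 11.30 ± 0.39 in treated and 11.50 ± 0.35 in control cells for Dcn (SD, n = 5 each). Fmod had means of 7.85 ± 0.94 in treated and 7.90 ± 0.53 in control cells, and Sparc of 12.73 ± 0.10 in treated and 12.66 ± 0.14 in control cells (SD, n = 5 each). The 8 genes thus differed in how steady they were from array to array. The residual SD within groups was taken after limma's moderation, which pulls the SD of each gene toward a common value. It was 0.66 for Fmod and 0.61 for Ogn, which placed them in the top 2.2% and 2.7% of all genes. This moderated SD was 0.39 for Lum, 0.35 for Postn, 0.33 for Dcn and 0.33 for Bgn. Fn1 and Sparc, at 0.144 and 0.140, lay below the all-gene median of 0.195.

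The array-to-array variation was shared within part of the set. Over the 10 iPSC-derived arrays, Dcn, Lum, Ogn, Bgn and Postn correlated positively in all 10 pairs, with Pearson's r of 0.60 to 0.85, and with r of 0.45 to 0.97 over the 8 arrays not numbered 5. Dcn and Postn had r = 0.70 over 10 arrays and 0.97 over 8. Fn1 ran against these 5 genes, with r of -0.74 to -0.38 over 10 arrays and -0.77 to -0.52 over 8. Sparc did too, with r of -0.85 to -0.32 over 10 arrays and -0.86 to -0.21 over 8. Fmod depended on the arrays numbered 5: its r with the 5 genes was -0.20 to 0.42 with them and 0.30 to 0.81 without them. Such correlations describe arrays that share 2 treatments, a cell source and processing by RMA, and these groupings were formed after the values were seen.

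**Figure D4:**
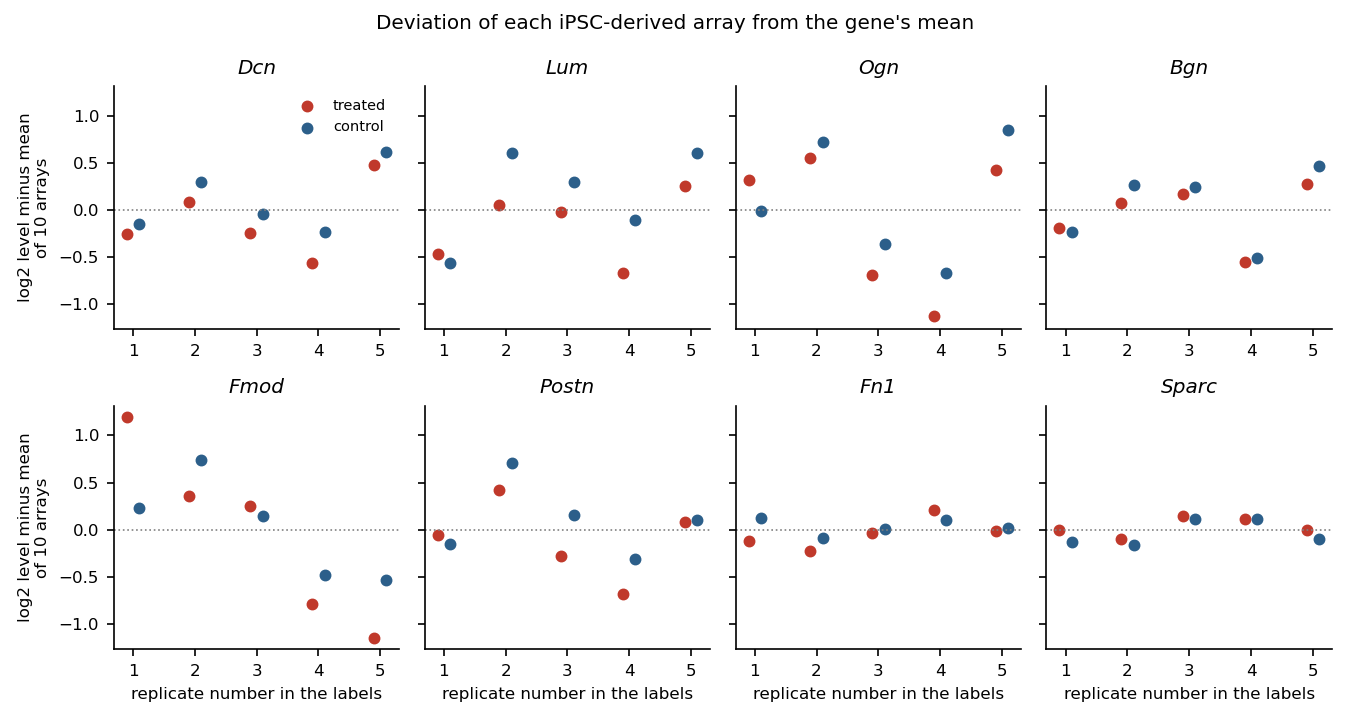
Log2 level of each gene on each iPSC-derived array minus the gene's mean over the 10 arrays, by replicate number, with treated red and control blue. Dcn, Ogn and Postn dip on the arrays numbered 4, Fmod is lowest on those numbered 5, and Fn1 and Sparc hardly move, and whether arrays with equal numbers share a culture is not labelled.

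The genes most like each member were sought over the same 10 arrays among 10961 genes with a mean log2 level of at least 6. The highest r among so many genes over 10 arrays can be high by selection alone. The 8 arrays are part of the same 10, so their r is no separate check. A shared role was not tested. Dcn was followed by Olfml3, a secreted olfactomedin-like protein (r = 0.989, and 0.985 over 8 arrays), by Cyp1b1, a cytochrome P450 (0.988 and 0.97), and by the growth factor gene Igf1 (0.984 and 0.962). Ogn was followed by Lox, which cross-links collagen (0.979 and 0.984), by the tight junction gene Cldn11 (0.972 and 0.992), and by Cd302, a C-type lectin receptor (0.972 and 0.963). Postn was followed by P3h1, a collagen prolyl hydroxylase (0.972 and 0.976), by Med30 of the Mediator complex (0.963 and 0.966), and by the syntrophin gene Sntb2 (0.95 and 0.953).

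Lum was followed by the laminin chain gene Lama4 (r = 0.934, and 0.908 over 8 arrays), by the acetyltransferase gene Kat2a (0.931 and 0.911), and by Itga11, a collagen-binding integrin chain (0.909 and 0.907). Bgn was followed by the transcription factor gene Elf4 (0.96 and 0.97), by Iqce (0.959 and 0.952) and by Wdr6 (0.941 and 0.913). Fmod was followed by Gas5, a host transcript of small nucleolar RNAs (0.972 and 0.982), by the junctional adhesion gene Jam2 (0.962 and 0.966), and by Cryz (0.96 and 0.973). Fn1 was followed by the stress-induced phosphatase subunit gene Ppp1r15a (0.968 and 0.979), by Tmcc3 (0.958 and 0.959), and by the corepressor gene Nrip1 (0.954 and 0.956). Sparc was followed by Clec18a (0.931 and 0.943), by the myoglobin gene Mb (0.93 and 0.93), and by Spock1, a proteoglycan that shares a domain with Sparc (0.927 and 0.944). No 2 of the 8 genes named the same gene, and none named another of the 8.

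Other genes of the matrix were set beside the 8 by role, again in control against primary cells, where 19.3% of all genes were called higher and 22.5% lower. Among 7 leucine-rich proteoglycans that lie next to Dcn, Lum, Ogn or Fmod in the genome, 4 were higher, 0 lower and 3 did not pass, with a median of 0.65. Prelp, beside Fmod, was higher by 3.68 (adjusted p = 8.59e-08 by limma), Aspn, beside Ogn, by 2.90, and Ecm2 by 1.81. The fourth, Optc (0.65, adjusted p = 0.0245), did not pass with arrays centred on their medians (adjusted p = 0.0717). Kera (0.08) and Epyc (0.20), beside Dcn and Lum, and Omd (-0.01), beside Ogn, did not pass. Kera (3.80 to 4.08 on iPSC-derived arrays) and Omd (3.51 to 4.20) lay below the lower quartile of every array, 4.32 to 4.70. Detection was not tested, so their small differences do not show equal expression. Aspn lay at 3.97 to 4.36 on primary arrays, so its 2.90 is a lower limit if it was below background there. Of 5 measured leucine-rich proteoglycans elsewhere in the genome, Podn was higher (1.33), Podnl1 was lower (-0.31), and 3 did not pass, among them Chad (-0.31). Their median was 0.02. With arrays centred the median was -0.17, and Chad was called lower as well (-0.50, adjusted p = 0.0189 by limma).

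Of 9 large aggregating and basement membrane proteoglycans and their link proteins, 1 was higher, 2 were lower and 6 did not pass, with a median of -0.08. Without the arrays numbered 5, 2 were higher and 2 lower. Neither count stands far from the all-gene shares of 19.3% higher and 22.5% lower. The perlecan gene Hspg2, of basement membranes, was higher by 2.45, while Ncan (-1.71), a proteoglycan of the brain matrix, and Agrn (-0.72), a heparan sulfate proteoglycan of basement membranes and the neuromuscular junction, were lower. Bcan had a difference of 0.96 and an adjusted p of 0.145. Cell surface proteoglycans were split by member, with 5 of 11 higher, 3 lower and a median of 0.75, against 19.3% higher and 22.5% lower over all genes. The glypican genes Gpc3 and Gpc4 were higher by 4.55 and 3.46, whereas Gpc2, a glypican of developing neurons, was lower, with a log2 difference of -3.44. Sdc3 and Gpc1 were lower too (-2.15 and -0.75). Of 20 genes that build or modify glycosaminoglycan chains, 6 were higher, 3 lower and 11 did not pass, with a median of 0.37, and these counts lie near the all-gene shares of 19.3% higher and 22.5% lower. Chst14 (2.59) and Dse (1.17), which make dermatan sulfate, and Chst15 (1.78), which adds sulfate to chondroitin, were the highest. Xylt1 (-0.64), B3galt6 (-0.81) and Chsy3 (-0.70) were lower. With arrays centred, 6 of the 20 were called lower, against 8833 of all 19938 genes, so the list did not stand out as lower.

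Further matricellular and adhesive glycoproteins were mostly higher: 18 of 27 rose in control cells against primary neurons, 4 fell and 5 did not pass, with a median of 2.22. The all-gene shares, here and for the lists below, were 19.3% higher and 22.5% lower. The nidogen genes Nid2 and Nid1, which link laminin to collagen IV, were higher by 4.62 and 4.58, and the vitronectin gene Vtn by 4.31. The 4 that fell were Tnr (-1.38), a tenascin of the brain matrix, and the testican genes Spock1 (-1.27), Spock2 (-1.60) and Spock3 (-1.56). Of 13 integrin chains and other receptors of fibronectin, collagen and hyaluronan, 9 were higher and 0 lower, with a median of 1.60. Itgav (3.57), Itga8 (2.69) and Itga5 (2.49), chains of receptors that bind fibronectin, were the highest. Of 12 TGF-beta ligands, latency proteins and receptors, 10 were higher and 1 lower, with a median of 1.02. Tgfbr3, Tgfb3 and Tgfb2 were higher by 2.58, 2.42 and 2.36, while Tgfbr1, the type I receptor gene, was lower (-1.52). Of 15 matrix proteases and inhibitors, 9 were higher and 1 lower (Tll1, -0.81), with a median of 1.36. Mmp2 (4.16), Pcolce (4.12), an enhancer of procollagen processing, and Adamts1 (3.71), which cleaves large proteoglycans, were the highest. In treated against primary cells, which share the primary samples, the counts higher and lower differed by at most 1 gene from these in each list. In treated against control cells 0 genes of any of these 9 lists passed limma's test. With arrays centred on their medians, 3046 of all 19938 genes were called higher and 8833 lower in control than in primary cells. Then 8 of the 13 receptors and 9 of the 12 TGF-beta genes were higher, and the glycoprotein and protease counts stayed the same.

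**Figure D5:**
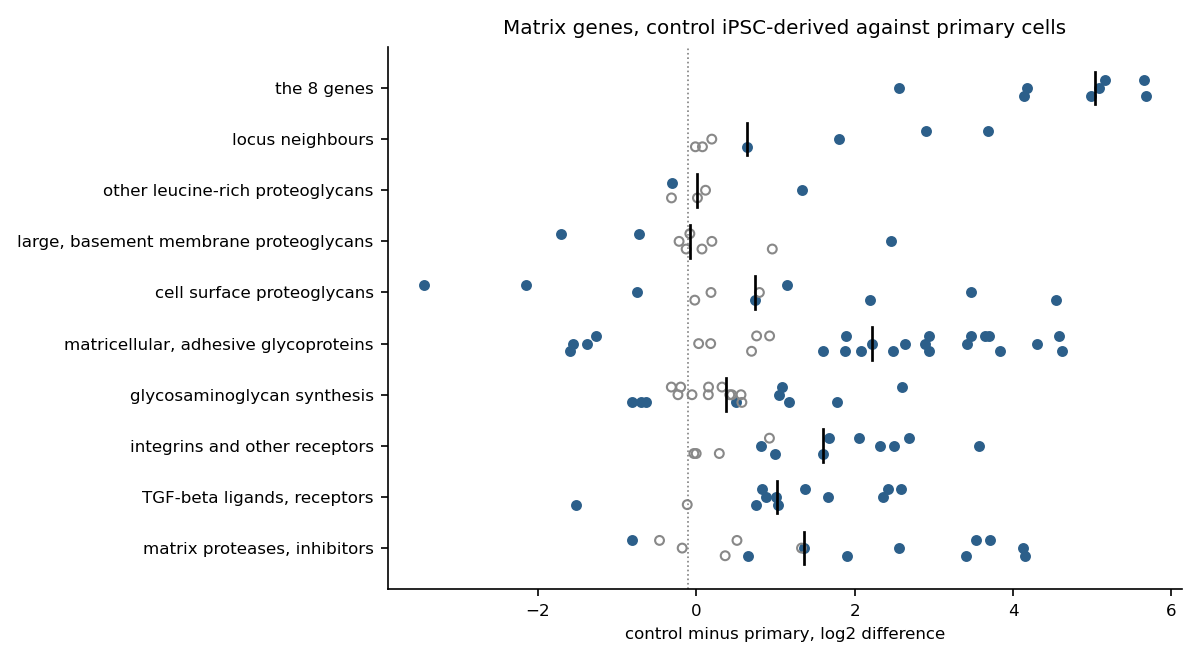
Control minus primary log2 difference of the 8 genes and of each gene of the 9 matrix lists; filled points passed limma's test, open points did not, black bars are list medians and the dotted line is the all-gene median of -0.11. The 8 genes have a median of 5.03, above that of each list, the highest of which is 2.22 for the matricellular and adhesive glycoproteins.

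The primary stages were compared without a test, since each is 1 sample. No gene of the 8 differed by at least 1 log2 unit between E14.5 and E13.5 with arrays that did not overlap, against 0.241% of all genes. Dcn alone was higher on all E14.5 arrays (5.94 to 6.34) than on all E13.5 arrays (5.39 to 5.77), a difference of 0.58, so that 1 of 8 genes was higher without overlap, against 4.75% of all genes. The next was Sparc, with a difference of 0.43 and overlapping arrays. The others differed by 0.22 (Fmod), 0.18 (Ogn), 0.18 (Postn), 0.16 (Fn1), 0.08 (Bgn) and -0.03 (Lum). The second E14.5 array was the highest of its stage for Lum, Ogn, Bgn, Postn, Fn1 and Sparc. Without it the differences of Ogn (-0.02), Bgn (-0.20) and Postn (-0.08) took the other sign. Sparcl1, a relative of Sparc made by glia, was the only gene of the 9 matrix lists that met the rule for a stage difference, with means of 8.49 at E14.5 and 7.49 at E13.5.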

How the data were processed

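Total RNA of GFP-sorted cells was amplified and biotin-labelled for Affymetrix arrays, per the labels' protocols. The deposited table held log2 levels of 35556 probe sets on 16 arrays, which the authors made with RMA in Affymetrix Expression Console 1.2, per the submitters' processing notes; these values were used unchanged. Of 23410 probe sets with a gene annotation, 21789 had 1 symbol; they gave 19938 genes, each by its probe set with the highest mean. Whether all 16 arrays were normalized together was not given in the sources used, and differences between iPSC-derived and primary arrays rest on that. Technical arrays were averaged before testing. Treated and control arrays were compared by limma 3.58.1 in R 4.3.3, and both were compared with the 2 primary samples. Benjamini-Hochberg adjustment ran over all genes, with a threshold of 0.05. The code was run on simulated independent arrays. These hold no spread shared by replicate number or by technical arrays, so the run does not check the design. Replicates left out, scaling, filters, the variance model and a replicate block were tried as alternatives. The genes, lists and markers were chosen with earlier results of these data known. Of each matrix list, the 3 largest differences and the genes called against its direction were named. Cell type lists were not named by this rule, and only some of their genes are given. For each of the 8 genes, the 3 most correlated genes were named.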

Additional observations from a re-analysis of the deposited data

How the results depend on the processing

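Between treated and control cells, 0 of the 8 genes passed limma's test under any alternative run, and all 8 were called higher than in primary neurons under each of 26 alternatives in treated and in control cells. The largest adjusted p there was that of Fmod with E14.5 as the only primary sample, 0.0305 in treated and 0.0276 in control cells. With 1 array left out in turn, the treated minus control difference ranged from -0.403 to 0.044 for Ogn, from -0.232 to 0.035 for Bgn and from -0.356 to 0.23 for Fmod; without both arrays numbered 5 it was 0.091 for Fmod. The cause was not tested. Centring arrays on their medians moved the all-gene median of control minus primary to -0.30, in place of -0.11, and the genes called lower to 8833, in place of 4491. The labels do not say whether equal replicate numbers mark pairs, so the main test was unpaired. Deviations from the group means correlated over all genes at 0.05, 0.52, 0.44, 0.72 and 0.80 for numbers 1 to 5. Both arrays numbered 2, 4 and 5, and control replicate 3, correlated best with their own number. Treated replicate 3 and both arrays numbered 1 did not. With the replicate block, 1 gene was called between treated and control cells, none of the 8, and each of the 8 had an adjusted p of at least 0.999. The block left the differences as they were and gave smaller SEs. They were 0.078 in place of 0.210 for Dcn, 0.108 in place of 0.249 for Lum and 0.120 in place of 0.388 for Ogn. The unpaired intervals thus hold spread that arrays of equal number shared. At equal numbers the treated value was the lower one in 5 of 5 for Dcn and in 0 of 5 for Sparc. It was the lower one in 4 of 5 for Lum, Ogn, Bgn, Postn and Fn1, and in 3 of 5 for Fmod. No share over all genes was taken for these counts. Without both arrays numbered 5, 5 of 6 pluripotency markers were called higher in control than in primary cells, in place of 0. Of all 19938 genes, 4489 were called higher in that setting. Precision rests on 5 arrays a group and 2 primary samples, and on levels near the dim end of the arrays for Lum and Ogn in primary neurons.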
